A study of Danio rerio with 45 samples.

Results

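The expression change of wild-type (WT) zebrafish embryos between the 5-somite stage and 1 day post fertilization (dpf) was taken from 6 one-colour oligonucleotide arrays, chosen by their labels as all WT arrays of these stages, out of 45 arrays in the series. Each stage had 3 replicates, and each replicate was total RNA from a pool of 20 whole live embryos, so a pool holds every cell type of the embryo and the yolk-associated cells. The series also holds WT pools at the 1-2 cell, shield and 2 dpf stages and the same 5 stages of MZdnmt3aa-/- embryos, which lack the maternal and the zygotic function of dnmt3aa, and of dnmt3bb.2-/- embryos. Both genes encode de novo DNA methyltransferases, and the WT pools carry neither mutation. The comparison asks which genes were switched off and which were switched on while the organs formed in WT.

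At the 5-somite stage gastrulation has ended and the first somites have been cut from the presomitic mesoderm, a tissue in which cyclic genes of the her family and Notch, Fgf and Wnt signals set the rhythm of segmentation. By 1 dpf segmentation is over or nearly so, the body twitches, the heart beats, primitive red cells enter the circulation, the lens has formed, and the first melanin appears. Genes of gastrula patterning and of the segmentation clock act early in this window, while genes of contraction, oxygen transport, synapses, lens fibres and pigment belong to differentiated cells.

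Values are log2 of the deposited normalized intensity, called the log2 signal here, and a log2 fold change is the 1 dpf mean minus the 5-somite mean. The 3 WT 5-somite arrays lay on 1 slide scanned on 1 day and the 3 WT 1 dpf arrays on another slide scanned on another day, so within WT the stage, the slide and the scan day cannot be told apart. Between 74.0% and 77.0% of the features were well above background on the 5-somite arrays and between 80.5% and 82.9% at 1 dpf, and the median spot was 3.52 to 3.72 times as bright as its local background at 5-somite and 5.04 to 5.17 times at 1 dpf. Replicates correlated at 0.994 to 0.9955 and arrays of different stages at 0.902 to 0.906 over all probes with a value on all 6 arrays, dim probes included. Markers of the tissues of a whole embryo were detected: the surface keratin krt4 (18.39 ± 0.05 at 5-somite), the neural factor sox2 (13.87 ± 0.03), the muscle factor myod1 (12.22 ± 0.09), the blood factor gata1a (10.04 ± 0.08) and the hatching gland protease ctslb (18.77 ± 0.02) were well above background on all 6 arrays (mean ± SD, n = 3), as was the germ cell helicase ddx4 (6.75 ± 0.10).

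Of 43603 probes, 27460 were called by limma at a Benjamini-Hochberg adjusted p of at most 0.01. These were 63.0% of all probes, with 13953 higher and 13507 lower at 1 dpf, an even split that depended on the scaling. With quantile normalization 11368 were higher and 18559 lower. With normexp background correction, followed by the same quantile step, 11497 were higher and 17854 lower. The split also depended on the p-value adjustment: with the stricter Holm adjustment and the scaling unchanged, 2425 were higher and 860 lower. Among the called probes 8555 were higher by at least 2-fold (19.6%) and 4887 lower by at least 2-fold (11.2%), 1611 were higher and 182 lower by at least 16-fold, and 174 were higher and 6 lower by at least 256-fold. The median log2 fold change over all probes was -0.05. In all 27460 called probes the values of the 3 arrays of one stage lay wholly above those of the other. A call made on the same values nearly entails this, so it is no further evidence. For 14200 genes with a symbol, each read from its brightest probe, 5104 were higher (35.9%) and 4975 lower (35.0%), with 3022 higher (21.3%) and 1574 lower (11.1%) by at least 2-fold. These shares are the background for every gene list below, and the median log2 fold change of the genes was -0.02. The genes named from a list are its first members and those of the largest rise and fall, together with further members chosen after the values were seen. Below, the amounts by which a gene rose or fell, and values in brackets before an adjusted p (limma), are log2 fold changes. Over the 30921 probes above background on all 6 arrays, which leaves out dim probes, the median SD within a group was 0.08 at 5-somite and 0.05 at 1 dpf on the log2 scale. In whole embryos fewer cells of a type and less RNA per cell cannot be told apart.

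A probe is called switched on when it was well above background on 3 of 3 arrays at 1 dpf and on 0 of 3 at 5-somite and was called higher, and switched off in the opposite case. Of all probes 2386 were switched on (5.47%) and 445 switched off (1.02%), and of the genes, by their brightest probe, 681 (4.80%) and 92 (0.648%). For such probes a fold is given as a lower limit, the mean of the bright stage over the mean of the lowest signal that was well above background on each array of the dim stage, or of the probe's own signal where that was higher.

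**Figure D1:**
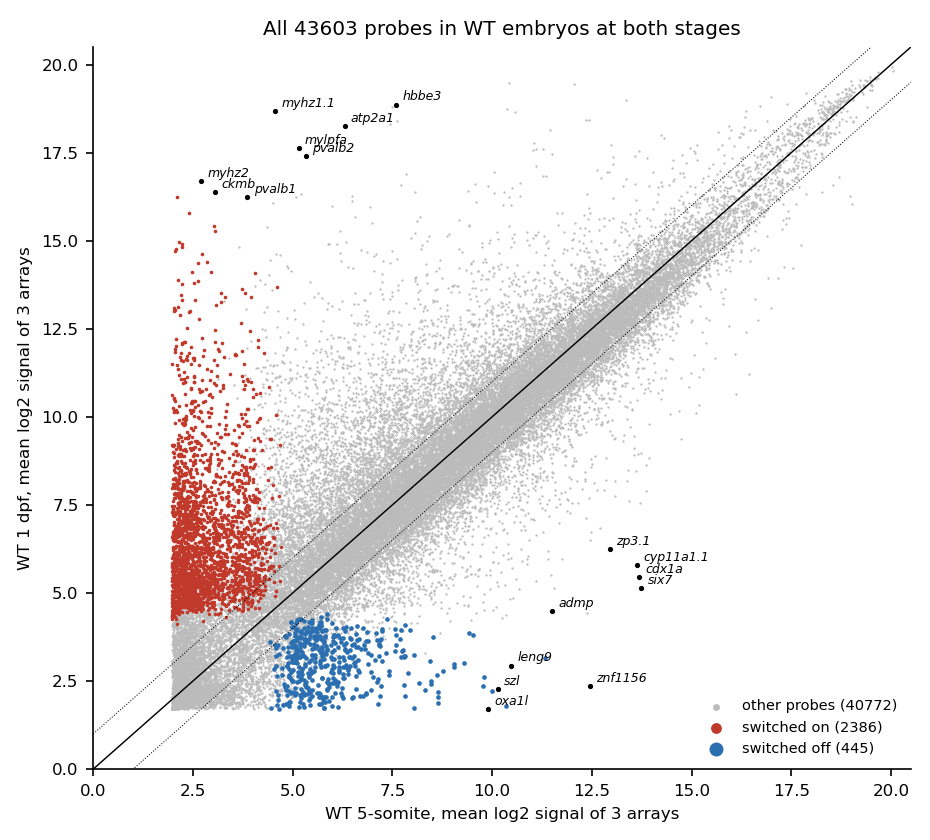
Mean log2 signal of each of the 43603 probes at 5-somite (x axis) and 1 dpf (y axis), each the mean of 3 WT arrays, with 2386 switched-on probes in red, 445 switched-off probes in blue and the others in grey. The solid line marks equal signals, the dotted lines a 2-fold difference, and the black named points are genes of the largest changes, with myhz2 at 2.70 and 16.70 and znf1156 at 12.46 and 2.36.

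Genes of the contractile apparatus of skeletal muscle made up 7 of the 12 largest rises among genes detected on at least 1 array at 5-somite, switched-on genes being ranked apart by their lower limits. Of 34 measured genes of that list 33 rose, all 33 by at least 2-fold, 0 fell, and 9 were switched on. The list's median log2 fold change was 8.01, and 7.28 with the switched-on genes at their lower limit. The fast myosin heavy chain myhz2 read 3.37, 2.49 and 2.25 on the 5-somite arrays, not well above background on any, and 16.67, 16.80 and 16.63 at 1 dpf. The 2 stages did not overlap, as the ranking required. The rise was at least 5329-fold, and the adjusted p was 9.86e-07 (limma). Another fast myosin heavy chain, myhz1.1, rose by 14.12 (SE 0.14, adjusted p = 1.49e-07, limma) on a probe detected on 2 of 3 arrays at 5-somite and by at least 3869-fold on a probe that was switched on. On its brightest probe, which already read 9.42 ± 0.05 at 5-somite, the rise was 6.02.

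The fast myosin light chain mylpfa read 5.09, 5.36 and 5.01 at 5-somite and 17.59, 17.65 and 17.62 at 1 dpf. The calcium pump of the sarcoplasmic reticulum, atp2a1, went from 6.23, 6.43 and 6.24 to 18.28, 18.31 and 18.20, and the calcium-binding parvalbumin pvalb2 from 5.34, 5.27 and 5.36 to 17.35, 17.40 and 17.43. All 3 were already detected on every 5-somite array, and their stages did not overlap, as the ranking required. They rose by 12.47, 11.96 and 12.07. Muscle creatine kinases, which buffer ATP, rose too: ckma rose by 11.12 and ckmb by at least 4291-fold. Among the genes switched on with the highest lower limits were pvalb1 (at least 3873-fold), mylpfa on a further probe (at least 2857-fold), and the troponins tnni2a.4 (at least 1548-fold) and tnnt3a (at least 1058-fold). The light chain myl1 rose by 11.17 and troponin tnnt3b by 11.03, while the other 3 probes of tnnt3b rose by 5.40 to 6.53.

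The smallest rises of the list were those of smyhc1, acta1a and eno3. The slow myosin heavy chain smyhc1 read 12.08, 12.06 and 12.04 at 5-somite and 15.20, 15.22 and 15.20 at 1 dpf, a rise of 3.15. The skeletal actin acta1a rose by 2.30 from 15.94 ± 0.01, and the glycolytic enolase eno3 by 2.12 from 14.80 ± 0.12. The skeletal actin acta1b rose by 6.74 and the light chain mylpfb by 9.07. The calcium channel subunit cacna1sb and the junction protein jph2, which couple excitation to contraction, were switched on (at least 169.6-fold and 219-fold). The slow myosin-binding protein mybpc1 was not well above background on any of the 6 arrays (-0.23, adjusted p = 0.482).

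**Figure D2:**
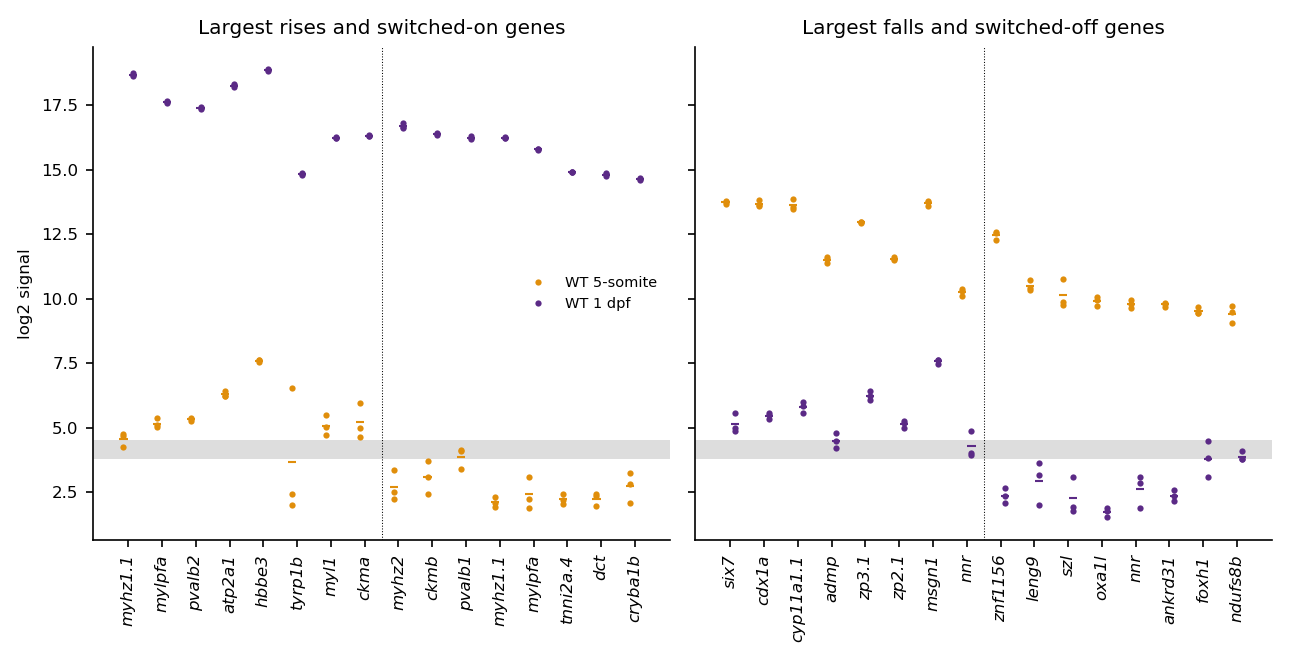
Log2 signal (y axis) on each of the 6 WT arrays for the first 8 genes of the largest rises and of the switched-on genes (left panel) and of the largest falls and of the switched-off genes (right panel), with orange points for 5-somite, violet points for 1 dpf, short bars for the means of 3 arrays and the grey band for the range over the 6 arrays of the lowest signal that was well above background. In every gene the 2 stages are apart, which the ranking required. The widest spread is that of tyrp1b at 5-somite, with 2.01, 2.41 and 6.54.

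Read from their brightest probes, the transcription factors and chaperones of myogenesis moved far less than the genes of contraction. Of 16 measured, 12 rose and 3 fell, with a median of 1.15. The muscle determination factor myf5, which acts first in the lineage, read 14.29, 14.27 and 14.19 at 5-somite and 10.77, 10.81 and 10.71 at 1 dpf. It fell by 3.49 on the log2 scale (SE 0.05), while the later factors myog and myf6 rose by 2.13 and 1.23 and myod1 by only 0.42. The other probe of myf6 rose by 4.55. The cofactor mef2ca rose by 1.89 on its brightest probe and by 2.58 to 3.65 on its 3 other probes. The satellite cell factor pax7a had the largest rise of the list, 3.83, and its 3 other probes gave 0.09 to 4.15. The factor pax3a did not pass the test (-0.20, adjusted p = 0.0463). The slow fibre factor prdm1a fell by 1.23. The fusion protein mymk fell by 1.35 on its brightest probe, whereas its 3 other probes all rose, by 4.39 to 6.55, so its direction depends on the probe.

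In the heart list 14 of 23 genes rose and 7 fell (median 1.50). On their brightest probes the genes that fell were 6 transcription factors and has2, and all contractile genes of the list rose. The cardiac light chain myl7 read 3.54, 2.93 and 3.42 at 5-somite, below the level of detection, and 13.37, 13.40 and 13.43 at 1 dpf, a rise of at least 540.3-fold. The ventricular and atrial myosins differed in when they were first seen. The ventricular myh7 was switched on (at least 141-fold), and the atrial myh6 was detected on all 5-somite arrays (6.14 ± 0.19) and rose by 4.48. The cardiac myosin light chain cmlc1 rose by 10.03 and the cardiac troponin tnnt2a by 6.03. The GATA factors gata4, gata5 and gata6, which specify heart and endoderm, fell by 1.54, 1.39 and 1.3, the factors klf2a, tbx20 and hand2 by 0.88, 0.78 and 0.39, and the hyaluronan synthase has2, needed for the valves, by 2.82. The 2 other probes of gata6 gave -0.62 and -0.08. Those of hand2 gave -0.41 and 0.42, of which only the fall was called. The homeobox factor nkx2.5 rose by 1.23. The T-box factor tbx5a and the calcium channel cacna1c had no level above background on any of the 6 arrays.

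Most measured genes of the erythroid list rose, the globins among them. In the erythroid list 17 of 20 genes rose and 3 fell (median 4.50, and 3.84 with switched genes at their lower limit). The embryonic alpha globin hbae1.1 read 10.19, 10.55 and 10.52 at 5-somite and 19.49, 19.48 and 19.48 at 1 dpf, and the beta globin hbbe3 went from 7.54, 7.63 and 7.62 to 18.88, 18.89 and 18.83. They rose 536-fold and 2466-fold, the beta globin hbbe1.1 rose by 8.89, and the beta globin hbbe2 was called on both of its probes, switched on by at least 889.8-fold on one. The membrane skeleton gene sptb was switched on (at least 88.1-fold), as were the erythroid factor klf1 (at least 26.1-fold) and the transferrin receptor tfr1a (at least 11.6-fold). The heme synthesis enzyme alas2 rose by 4.13 and the anion exchanger slc4a1a by 6.31. The 3 members that fell are regulators of blood progenitors: tal1 by 1.47, lmo2 by 1.78 and gfi1aa by 3.99. The erythroid master factor gata1a rose by 0.44 on its brightest probe and by 1.39 on its other probe.

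Of 22 endothelial genes 16 rose and 5 fell (median 2.22). The adhesion molecule pecam1a was switched on (at least 89.0-fold), as was the scavenger receptor stab1 (at least 17.1-fold), and the junction protein cdh5 rose by 2.66. The VEGF receptor kdrl rose by 2.21 on its brightest probe and fell on its other probe (-0.80), and the related kdr fell by 2.07. The VEGF receptors flt1 and flt4 rose by 2.66 and 2.23, with 0.30 and 1.92 on the 2 other probes of flt1. The ETS factor etsrp, which starts the endothelial programme, read 11.46, 11.46 and 11.45 at 5-somite and 10.28, 10.29 and 10.25 at 1 dpf, a fall of 1.18. Of 17 myeloid genes 12 rose and 3 fell. The neutrophil enzymes lyz and mpx rose, lyz by 5.98 and mpx by at least 14.3-fold, and the macrophage gene mpeg1.1 was switched on (at least 5.36-fold). The myeloid factor spi1b rose by 1.02 and the leukocyte actin regulator coro1a by 5.47. The actin-bundling gene lcp1, also called L-plastin, had the largest fall, 2.99, from 14.04 ± 0.08.

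In the neuron list 29 of 34 genes rose, all of them by at least 2-fold, and 1 fell (median 3.79, and 3.59 with switched genes at their lower limit). The G protein subunit gng3, used as a marker of neurons, read 3.64, 2.30 and 2.04 at 5-somite and 12.75, 12.83 and 12.73 at 1 dpf. It was switched on by at least 350.0-fold, and so was the neurofilament gene inab by at least 186-fold. The growth and vesicle genes stmn2b, vamp2, snap25a and gap43 were detected on every 5-somite array and rose by 5.21, 5.45, 5.75 and 3.98. Some genes of transmitter identity were detected at 1 dpf and not at 5-somite: chata, the acetylcholine synthase, read 5.14 ± 0.18 at 1 dpf, th, the dopamine pathway enzyme, 5.81 ± 0.05, and the glutamate transporter slc17a6b 5.67 ± 0.09, each above background on 3 of 3 arrays against 0 of 3. These levels are not far above the lowest detected signals of the 5-somite arrays, 4.14 to 4.53. The proneural factor neurog1 did not pass the test on its brightest probe (0.09, adjusted p = 0.185), and its other probe rose by 0.43. The LIM factors isl1a (0.18, adjusted p = 0.0198) and isl2a (-0.15, adjusted p = 0.0627) did not pass the test, and the RNA-binding marker elavl3 rose by 1.26. Its relative elavl4 rose by 3.60 and the differentiation factors neurod1 and neurod4 by 1.55 and 2.43. The 1 fall of the list, gad2 (-0.76), stood on its brightest probe only: its 7 other probes rose, by 1.67 to 6.02.

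The list of neural progenitor and regional genes split evenly, with 12 of 25 higher and 11 lower and a median of 0.24. The progenitor factor sox2 read 13.87 ± 0.03 at 5-somite and 13.95 ± 0.06 at 1 dpf, with overlapping arrays, and did not pass the test (adjusted p = 0.192). The radial glial lipid-binding gene fabp7a rose by 6.91, the glial filament gfap by 2.49 and the proneural factor ascl1a by 2.31. The SoxB1 factors went apart, with sox3 higher by 0.85 and sox19a lower by 0.75, and the eye and brain factor pax6b fell by 0.39 while pax6a did not pass the test (0.24, adjusted p = 0.0115). The hindbrain factor egr2b, which marks rhombomeres 3 and 5, read 13.93, 14.01 and 13.85 at 5-somite and 9.85, 9.78 and 9.79 at 1 dpf. Its fall of 4.12 was the largest of the list. The anterior factors six3b and otx2b fell by 1.52 and 0.87, and the midbrain-hindbrain factor gbx2 by 1.48.

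In the lens list, which holds crystallins, lens membrane genes and lens transcription factors, 23 of 27 measured genes rose, 9 of them switched on, and 2 fell. The list's median was 4.67, and 3.96 with switched genes at their lower limit. The beta crystallin cryba1b read 2.82, 3.24 and 2.09 at 5-somite and 14.63, 14.67 and 14.60 at 1 dpf, which is at least 1272-fold. The gamma crystallin crygmxl2 (at least 125-fold), the beta crystallin cryba2a (at least 275-fold) and the lens water channel mipa (at least 59.6-fold) were also switched on, and crybb1 rose from 3.28 ± 0.98 to 13.28 ± 0.04. The alpha crystallin cryaa was switched on, with 7.66 ± 0.09 at 1 dpf (at least 10.1-fold). The alpha crystallin cryaba had no level above background on any of the 6 arrays. The beta crystallin cryba1a rose by 1.28 on its brightest probe and by 4.07 on its other probe. The lens factors moved less, with foxe3 higher by 1.03 and pitx3 lower by 0.55 on its brightest probe and between 0.15 and 0.23 on its other probes. The probe of crygm3 was the exception among crystallins: it was above background on 3 of 3 arrays at 5-somite and 0 of 3 at 1 dpf. The gamma crystallins of the crygm2d family are near-identical copies, and their probes may share signal.

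The list of retina and pineal genes did not move as a block, with 12 of 25 higher and 8 lower. Its median of 0.13 turned to -0.02 with 75th percentile scaling and -0.07 with quantile normalization. The retinal progenitor factor rx3 fell by 3.28, while the related rx1 rose by 3.17 and the bipolar cell factor vsx1 by 3.69. The related rx2 did not pass the test (-0.06, adjusted p = 0.256), and the rod transducin subunit gngt1 was switched on (at least 5.10-fold). The ganglion cell factor atoh7 and the rod genes gnat1 and nr2e3 were switched on (5.40 ± 0.06, 5.52 ± 0.21 and 5.09 ± 0.14 at 1 dpf), at levels not far above the limit of detection. The largest fall was that of arr3b, a cone arrestin, by 5.09 from 10.32 ± 0.05.

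Genes of pigment synthesis rose, several from below detection, while most factors of the migrating neural crest fell. Of 22 genes 15 rose, 6 of them switched on, and 5 fell (median 3.06, and 2.46 with switched genes at their lower limit). The melanin enzyme dct read 1.94, 2.34 and 2.43 at 5-somite and 14.86, 14.84 and 14.74 at 1 dpf. It was at least 1444-fold higher, and the melanosome transporter slc45a2 at least 43.1-fold. The melanin enzyme tyrp1b was high on 1 of the 3 arrays at 5-somite, with 2.01, 2.41 and 6.54, and read 14.82, 14.81 and 14.86 at 1 dpf. Its rise of 11.18 therefore has a larger error (SE 1.25). The pigment cell master factor mitfa was switched on (at least 16.6-fold). Enzymes of the yellow pteridine pigments also rose, with gch2 higher by 8.53 and xdh switched on (at least 6.34-fold). The crest factors sox10, foxd3, snai1b and sox9b fell by 0.54, 0.54, 2.09 and 1.44. The crest factor tfap2a fell by 0.97. The crest cell marker crestin rose by 0.30 on its brightest probe and by 1.81 to 2.79 on its 5 other probes. The receptor kinase of iridophores, ltk, had no level above background on any of the 6 arrays.

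**Figure D3:**
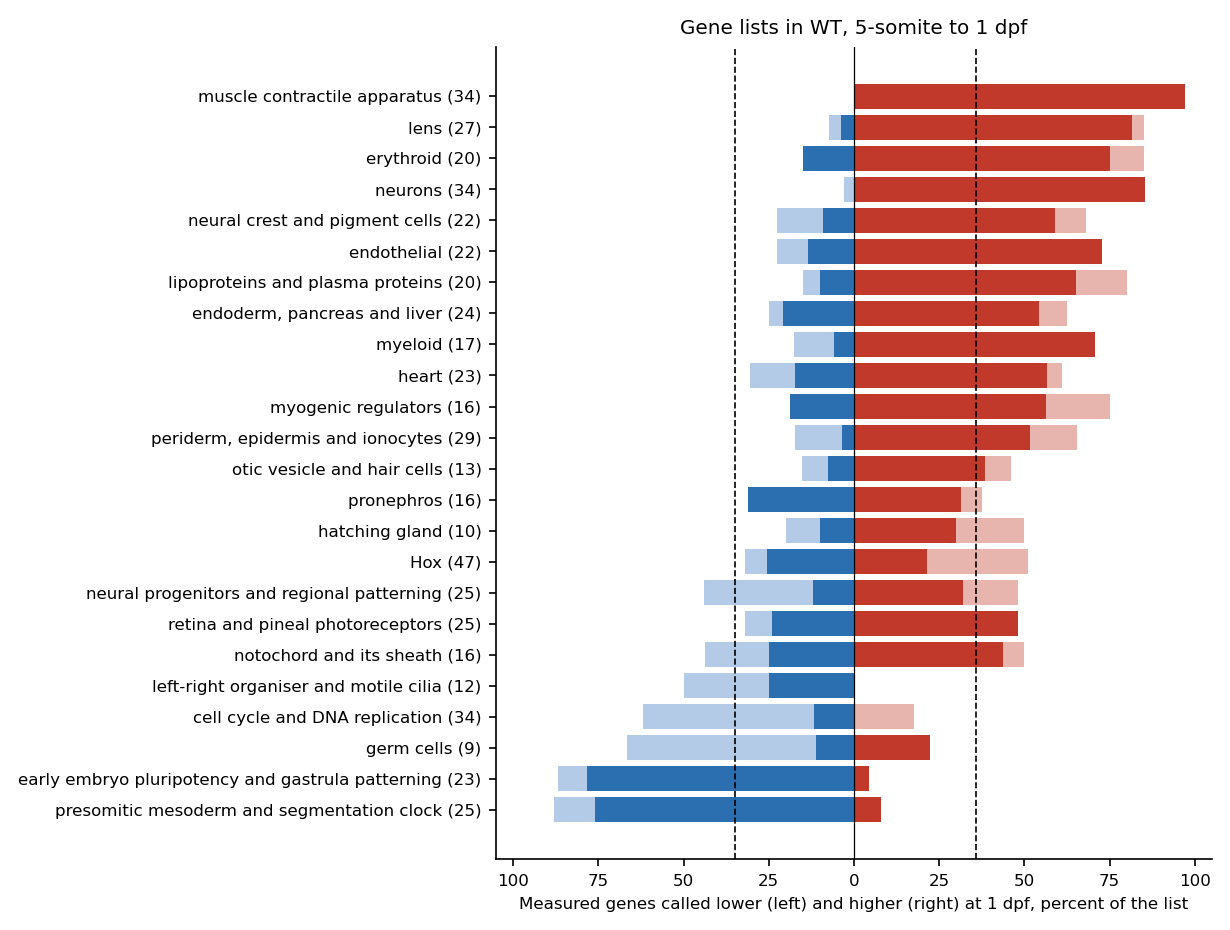
Share of the measured genes of each of 24 lists (y axis, number measured in brackets) called lower (left, blue) and higher (right, red) at 1 dpf (x axis, percent), dark where the change was at least 2-fold, with the lists ordered by median log2 fold change. The dashed lines mark the shares over all 14200 genes, 35.0% lower and 35.9% higher, and the contractile list at the top has 33 of 34 higher while the presomitic list at the bottom has 22 of 25 lower.

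Skin and axial tissues held both directions. In the list of periderm, epidermis and ionocytes 19 of 29 genes rose and 5 fell, and with quantile normalization 8 fell. The keratins krt4 and krt5 did not pass the test on their brightest probes, with krt4 at 18.39 ± 0.05 and 18.58 ± 0.03 (0.19, adjusted p = 0.0117) and krt5 at 18.55 ± 0.03 and 18.45 ± 0.03 (-0.10, adjusted p = 0.0631). The 7 other probes of krt4 rose, by 0.72 to 2.29. The keratins krt8 and krt18a.1 fell by 0.90 and 1.60, and krt17 rose by 0.99 on its brightest probe and fell on its other probe (-1.17). The collagens col1a1a, col1a1b and col1a2, which build the dermal matrix, rose by 8.62, 7.44 and 7.05. The fin fold gene and2 was switched on (at least 49.2-fold), as was the calcium channel of ionocytes, trpv6 (at least 13.3-fold). The ionocyte factors foxi3a and gcm2 gave small values, foxi3a rising by 0.29 and gcm2 not passing the test (0.01, adjusted p = 0.889).

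In the notochord list 8 of 16 genes rose and 7 fell. Its median of 0.10 turned to -0.05 with 75th percentile scaling, -0.07 with quantile normalization and -0.14 with normexp, so the list has no direction. The cartilage and sheath collagens col2a1a and col9a1a rose, by 2.74 and at least 8.89-fold, and the matrix protein matn4 by 7.93. The fibril collagen col11a1a rose by 2.55 on its brightest probe, and its 2 other probes gave -1.72 and 3.05. The fibril collagen col11a2 rose by 5.53, and col8a1a did not pass the test (-0.31, adjusted p = 0.0178). The laminin subunits lama1, lamb1a and lamc1 fell by 2.22, 1.47 and 0.85, and the midline signal shhb by 1.64. In the hatching gland the enzymes he1.1 and he1.2, which digest the chorion, rose by 3.17 and 2.65, and the gland's early factor klf17 fell by 2.10. The enzyme he1.3 did not pass the test on its brightest probe (0.21, adjusted p = 0.0198), while its 2 other probes rose, by 3.65 and 6.91. The tetraspanin cd63 rose by 0.70. Of the 10 genes of that list 5 rose and 2 fell, and leaving out any 1 of the arrays left 1 fall.

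Of 13 otic and hair cell genes 6 rose and 2 fell. The otolith matrix gene otomp was switched on (at least 24.1-fold) and the proneural factor atoh1a rose by 3.68, while starmaker, stm, also of the otolith matrix, fell by 1.60. The otolith protein gene oc90 and the placode factor eya1 rose by 0.39 and 1.04, and otop1, needed for otolith seeding, fell by 0.95. The hair cell genes pou4f3, myo6b, tmc2a and pcdh15a had no level above background on any of the 6 arrays. In the pronephros list 6 of 16 genes rose and 5 fell. The tubule transporter slc12a3 was switched on (at least 102-fold) and the tubule cadherin cdh17 rose by 4.75, and the early renal factors pax2a, hnf1ba and gata3 fell by 1.17, 2.10 and 2.2. The paralogs wt1a and wt1b, factors of the podocytes, went apart, wt1a lower by 1.34 and wt1b higher by 3.74, and lhx1a did not pass the test (-0.13, adjusted p = 0.131).

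Of 24 genes of endoderm, pancreas and liver 15 rose and 6 fell (median 1.77, and 1.05 with switched genes at their lower limit). Insulin, ins, read 2.44, 2.49 and 3.65 at 5-somite and 11.30, 11.37 and 11.42 at 1 dpf. It was not well above background on any 5-somite array and rose by at least 132-fold. The somatostatin gene sst2 rose by 3.19 and ptf1a, a factor of the pancreas and hindbrain, by 2.95. The factors foxa1 and prox1a rose by 0.63 and 2.23. The liver lipid-binding gene fabp10a was detected at 1 dpf (4.63 ± 0.12, above background on 3 of 3 arrays against 0 of 3). That level is close to the lowest detected signals of the 5-somite arrays, 4.14 to 4.53, so little of a rise is shown. The early endoderm factor sox17 was switched off, and foxa3, hnf4a and hhex fell by 1.44, 1.97 and 0.68. Plasma proteins and apolipoproteins, which the yolk syncytial layer also makes at these stages, rose in 16 of 20 genes and fell in 3 (median 1.87, and 1.62 with switched genes at their lower limit). The apolipoprotein apoea rose by 7.22, the retinol carrier rbp4 by 4.03 and the fibrinogen chains fga, fgb and fgg by 4.08, 3.93 and 4.07. The apolipoproteins apoa1a, apoa1b, apoa2, apoa4b.1 and apobb.1 rose by 2.41, 0.37, 3.82, 2.2 and 1.97. The microsomal transfer protein mttp fell by 1.35, and the hepatic lipase lipca was switched off.

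Genes of the unsegmented mesoderm had the lowest median of the 24 lists. Of 25 genes of the presomitic mesoderm and segmentation clock 22 fell, 19 of them by at least 2-fold, and 2 rose (median -3.71). The clock genes her1 and her7 read 11.96, 12.03 and 11.73 and 11.78, 11.78 and 11.66 at 5-somite. At 1 dpf they read 7.70, 7.59 and 7.64 and 6.02, 5.94 and 5.95. The falls were 4.27 (SE 0.09) and 5.77 (SE 0.05) on the log2 scale, 19.3-fold and 54.6-fold, and both genes remained above background on 3 of 3 arrays. Their partner hes6 fell by 1.46.

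The factors that commit cells to paraxial mesoderm fell by similar amounts, tbx6 by 4.75, tbx16 by 5.23 and msgn1 by 5.24. The genes that set the somite boundary fell as well: mespba by 4.54, mespbb by 4.05, mespaa by 4.18, ripply1 by 3.08 and ripply2 by 4.71. The tailbud signals wnt8a and fgf8a fell by 5.73 and 2.65, and the tail factor cdx4 by 4.83, from 15.18, 15.15 and 15.21 to 10.39, 10.39 and 10.27. The Notch ligands went opposite ways. The ligand dlc fell by 1.00 and dld, which is also active in the nervous system, rose by 1.18. The homeobox gene evx1, also a factor of spinal interneurons, rose by 2.31. No gene of this list met the definition of a switch, since all were still above background at 1 dpf.

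The caudal factor cdx1a gave different values on its 3 probes. One probe read 13.58, 13.64 and 13.84 at 5-somite and 5.49, 5.55 and 5.35 at 1 dpf, among the largest falls of the array, and its brightest probe read 13.27 ± 0.14 and 13.01 ± 0.05 (-0.26, adjusted p = 0.0271). The level of this gene at 1 dpf therefore depends on the probe.

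Genes of the pluripotent and gastrulating embryo fell in 20 of 23 cases and rose in 1 (median -2.68). The BMP family ligand admp read 11.51 ± 0.12 at 5-somite and 4.50 ± 0.31 at 1 dpf, a fall of 7.02. Its secreted partners went the same way: chrd, which binds BMPs, fell by 5.20, and szl, which protects Chordin from cleavage, read 9.76, 9.88 and 10.78 at 5-somite and was switched off (at least 69.8-fold lower). The ventral homeobox genes vox and ved fell by 4.08 and 4.31, and vent was switched off. The Nodal pathway factor foxh1 fell by 5.58 on its brightest probe and was switched off on another (at least 42.0-fold lower). The maternal pluripotency factors pou5f3 and nanog, which had read 16.32 and 17.60 at the 1-2 cell stage, fell between the 5-somite stage and 1 dpf by 2.78 and 2.44. The 2 other probes of nanog gave -2.33 and -0.16. The SoxB1 factor sox19b fell by 0.44. The Nodal inhibitor lft2, which acts in the heart field in left-right patterning, rose by 1.88, and lft1 fell by 2.55. The Nodal ligand ndr1 read 4.68, 3.58 and 4.48 and then 5.37, 5.69 and 5.87 (log2 fold change 1.39), just outside the threshold on its brightest probe, and its other probe was switched on (1.56). The number of genes of the list that rose was 2 without 5-somite replicate 2.

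Among the other largest falls were genes whose RNA was present at the 1-2 cell stage. The probes of six7 and pnhd, also among these falls, were well above background at that stage on 0 of 3 arrays. The egg coat genes zp3.1 and zp2.1 read 13.30 and 12.63 at the 1-2 cell stage and 12.96 ± 0.01 and 11.54 ± 0.06 at 5-somite. By 1 dpf they read 6.22, 6.08 and 6.41 for zp3.1 and 5.19, 4.98 and 5.25 for zp2.1. The steroid side-chain cleavage enzyme cyp11a1.1 fell by 7.83, from 13.54, 13.49 and 13.86 to 5.84, 5.57 and 5.99, after 15.71 at the 1-2 cell stage. On the other probes of zp3.1, zp2.1 and cyp11a1.1 the falls were smaller, with log2 fold changes of -2.27 to -1.86, -2.35 and -3.38. The homeobox factor six7, of the sine oculis family, read 1.85 on average at 1-2 cell and 10.96 at shield, then 13.79, 13.74 and 13.68 on the 5-somite arrays and 4.98, 5.58 and 4.87 at 1 dpf, and 12.73 on average at 2 dpf. Its other probes gave -4.83 and -1.47. The secreted factor pnhd, at 1.91 at the 1-2 cell stage, fell by 5.95. The Wnt gene wnt8-2, at 12.15 at that stage, fell by 5.96, and the prostaglandin synthase gene ptgdsb.2, at 8.08, by 5.82.

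The switched-off genes with the highest lower limits differed in what the 2 dpf stage showed. The genes szl, nnr (at least 54.7-fold), ankrd31 (at least 54.1-fold), foxh1 and vent (at least 32.8-fold) were above background on 0 of 3 arrays at 2 dpf, and their measured log2 fold changes in both mutants, from or to values that may lie below detection, lay between -7.54 and -4.41. The probes of znf1156, leng9, oxa1l and ndufs8b were above background again on 3 of 3 arrays at 2 dpf. The zinc finger gene znf1156 read 12.53, 12.58 and 12.26 at 5-somite, 2.33, 2.67 and 2.09 at 1 dpf and 10.88 on average at 2 dpf. Its 2 other probes gave -1.03 and -0.65, so the size of its fall rests on 1 probe. The same holds for leng9 (at least 88.7-fold, 8.48 at 2 dpf, other probe 0.28) and for oxa1l, a mitochondrial insertase (at least 59-fold, other probes -0.57 to 0.75). The complex I subunit ndufs8b (at least 39.2-fold) gave -3.26 on its other probe.

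Cell cycle and replication genes fell by small amounts. Of 34 genes 21 fell, 4 of them by at least 2-fold, and 6 rose (median -0.41). The cyclins ccnb1 and ccne1 fell by 0.47 and 1.47 and the replication helicase subunits mcm2, mcm3 and mcm5 by 0.58, 0.61 and 0.37, while mcm4 did not pass the test (-0.04, adjusted p = 0.454). The replication factor gins1 had the largest fall, 1.55. The sliding clamp pcna went the other way, from 14.36, 14.33 and 14.32 to 15.05, 14.97 and 14.94, a rise of 0.65. The number that rose was 2 with 75th percentile scaling, and 3 without 1 dpf replicate 1 or without 1 dpf replicate 2.

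Of 9 germ cell genes 6 fell and 2 rose. The germ cell helicase ddx4 read 6.84, 6.64 and 6.77 at 5-somite and 6.22, 6.43 and 6.17 at 1 dpf, a fall of 0.48, and the germ plasm genes nanos3 and dnd1 fell by 0.58 and 0.36. The maternal linker histone h1m had the largest fall, 2.53. The piRNA factor piwil1 fell by 0.83 and dazl did not pass the test (-0.21, adjusted p = 0.0496), and rgs14a was switched on (at least 2.09-fold). In the list of the left-right organiser and motile cilia 6 of 12 genes fell and 0 rose. The Nodal antagonist dand5, which is expressed in the organiser of the left-right axis, read 8.71, 8.66 and 8.56 at 5-somite and 1.97, 2.37 and 2.24 at 1 dpf. It was switched off, at least 24.7-fold lower, and the ciliary factors foxj1b and foxj1a fell by 2.38 and 0.50. The left-sided ligand spaw read 4.53, 4.49 and 4.58 and 4.25, 3.64 and 4.81 and did not pass the test. With quantile normalization 10 genes of this list fell.

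The Hox genes, which give the body axis its regional identity, differed by paralog group, a grouping added here after the values were seen. All 47 of the list had a probe, 24 rose and 15 fell (median 0.26). In paralog groups 11 to 13, which pattern the tail, 11 of 13 genes rose and 1 fell, with a median of 2.52. In groups 9 to 10, 1 of 8 rose and 6 fell (median -0.89), in groups 5 to 8, 3 of 12 rose and 5 fell (median -0.12), and in groups 1 to 4, 9 of 14 rose and 3 fell (median 0.43). Group 13 alone had a median of 4.55. The gene hoxa13a read 2.27, 2.62 and 2.58 at 5-somite and 8.11, 8.04 and 7.99 at 1 dpf and was switched on (at least 13.2-fold), as was hoxc12a (at least 9.32-fold). Those detected before rose too, hoxc13a by 5.51, hoxb13a by 4.45 and hoxd13a by 2.72, while hoxa13b did not pass the test (0.30, adjusted p = 0.0362). Among the falls hoxb7a (2.39), hoxc6b (2.19), hoxa9a (1.90) and hoxb10a (1.87) were the largest. All 5 genes of group 9 fell. Of the first anterior genes hoxa1a, hoxa2b and hoxa4a rose by 0.92, 0.47 and 0.38, and hoxa3a (0.26, adjusted p = 0.0393) and hoxa5a (-0.10, adjusted p = 0.261) did not pass the test.

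The other WT stages show how the 2 sets of switched probes sit in development. Of the 2386 switched-on probes 28.7% were above background on 3 of 3 arrays at the 1-2 cell stage, 15.8% at shield and 90.1% at 2 dpf, beside 64.5%, 67.2% and 80.4% of all probes. Above background on 0 of 3 arrays at both the 1-2 cell and the shield stage were 1370, and these were first detected on 3 of 3 arrays at 1 dpf among the stages up to then. Another 292 were above background on 3 of 3 arrays at both early stages, then on none at 5-somite, and again on all 3 at 1 dpf. The melanin enzyme dct was of that kind, with 9.34 at 1-2 cell, 6.60 at shield, 2.24 at 5-somite and 14.81 at 1 dpf. Of the 445 switched-off probes 39.3% were above background on 3 of 3 arrays at the 1-2 cell stage and 56.6% at shield, and 17.8% were above it again on 3 of 3 arrays at 2 dpf, while 64.5% were at 0 of 3.

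**Figure D4:**
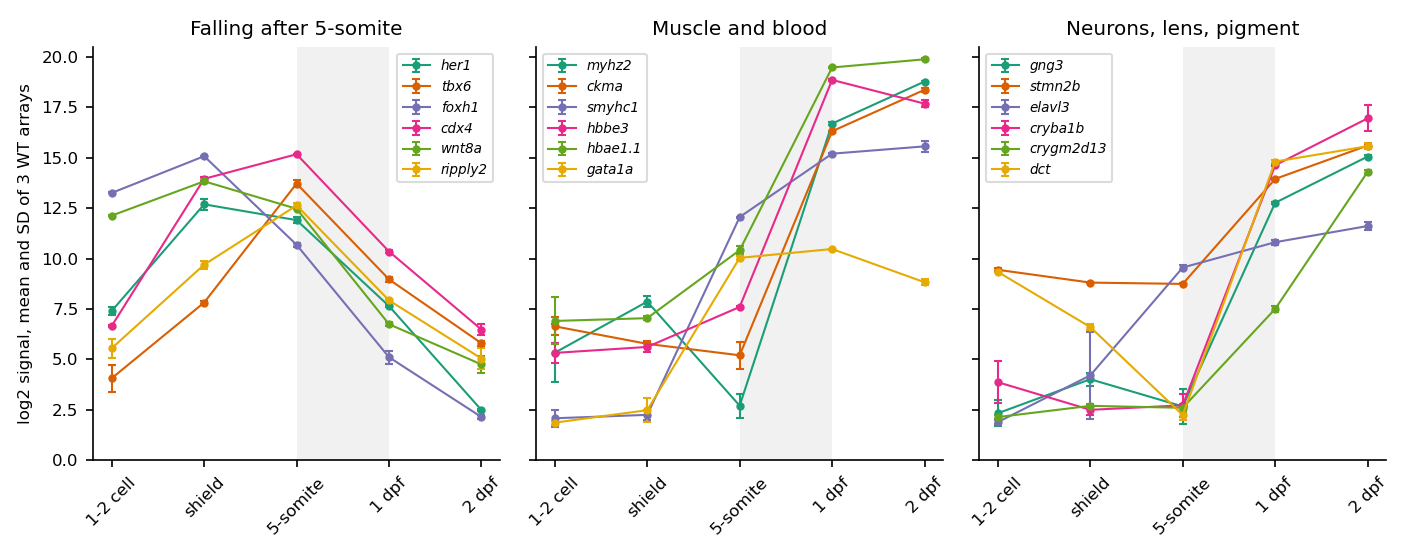
Log2 signal of 18 genes (y axis, mean with SD bars of 3 WT arrays) at the 5 WT stages (x axis), with the interval from 5-somite to 1 dpf shaded. The clock gene her1 reads 12.69 at shield and 11.91 at 5-somite and has come down to 2.48 at 2 dpf, the globin hbbe3 rises from 7.60 to 18.87 within it, and the gamma crystallin crygm2d13 goes on from 7.50 at 1 dpf to 14.30 at 2 dpf.

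The MZdnmt3aa-/- arrays of both stages were all scanned on 1 day. In that genotype 7873 probes were higher at 1 dpf (18.1%) and 4150 lower (9.52%). That count rested on single arrays, with 6575 and 7199 probes called without 1 dpf replicate 2 or 1, and 6485 and 7234 without 5-somite replicate 1 or 2. The median SD within a group, over probes above background on all 6 WT arrays, was 0.18 at 5-somite and 0.16 at 1 dpf. Of the 8555 probes that rose by at least 2-fold in WT, 94.8% were also higher in MZdnmt3aa-/- and 66.3% were called, with a median log2 fold change of 1.95 beside 2.24 in WT. Of the 4887 that fell, 92.2% were lower and 43.5% were called, with medians of -0.95 and -1.49. Both sets were chosen by their change in WT, so these medians do not compare the size of the change between the genotypes. One slide held a 5-somite and 3 1 dpf arrays of MZdnmt3aa-/-, and on that slide alone 95.7% of the rises and 84.7% of the falls had the WT direction, with medians of 2.13 and -0.89. Over the 30921 probes above background on all 6 WT arrays the stage changes of WT and MZdnmt3aa-/- correlated at r = 0.863, across probes, which are not independent replicates and share base composition. In dnmt3bb.2-/-, whose stages were scanned on the same days as those of WT, 96.0% of the rises and 94.8% of the falls had the WT direction. The switches of detection, also picked in WT, recurred less often than the directions. The switched-on pattern of 0 of 3 and then 3 of 3 arrays recurred for 57.3% of those probes in MZdnmt3aa-/- and 65.7% in dnmt3bb.2-/-. The switched-off pattern recurred for only 17.3% and 31.9%.

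In MZdnmt3aa-/- the median log2 fold change was 7.35 for the contractile list, 3.78 for neurons, 3.24 for the lens and -2.78 for the presomitic list. The erythroid list had a median of 1.58 beside 4.50 in WT and 8 of 20 genes whose stage change differed from WT by the interaction test. For the plasma protein list the medians were 0.25 and 1.87, with 1 of 20 called, and for Hox 0.75 and 0.26, with 10 of 47 called. Over all probes that test called 3466 between WT and MZdnmt3aa-/- (7.95%) and 9858 between WT and dnmt3bb.2-/- (22.6%). The alpha globin hbae1.1 rose by 5.21 in MZdnmt3aa-/- beside 9.07 in WT, a difference of 3.86 (adjusted p = 0.00071, limma). The WT arrays of the compared stages were scanned on other days than the MZdnmt3aa-/- arrays, so the genotype and the scan day cannot be told apart in this test. The dnmt3bb.2-/- arrays lay on other slides than the WT arrays of their stage, except 1 dpf replicate 1. In the dnmt3bb.2-/- test the genotype and the slide can therefore not be told apart at 5-somite, and only in part at 1 dpf. The count of the interaction test for MZdnmt3aa-/- rested on single arrays, with 1582 probes without WT 1 dpf replicate 1 and 6430 without MZdnmt3aa-/- 5-somite replicate 3.

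**Figure D5:**
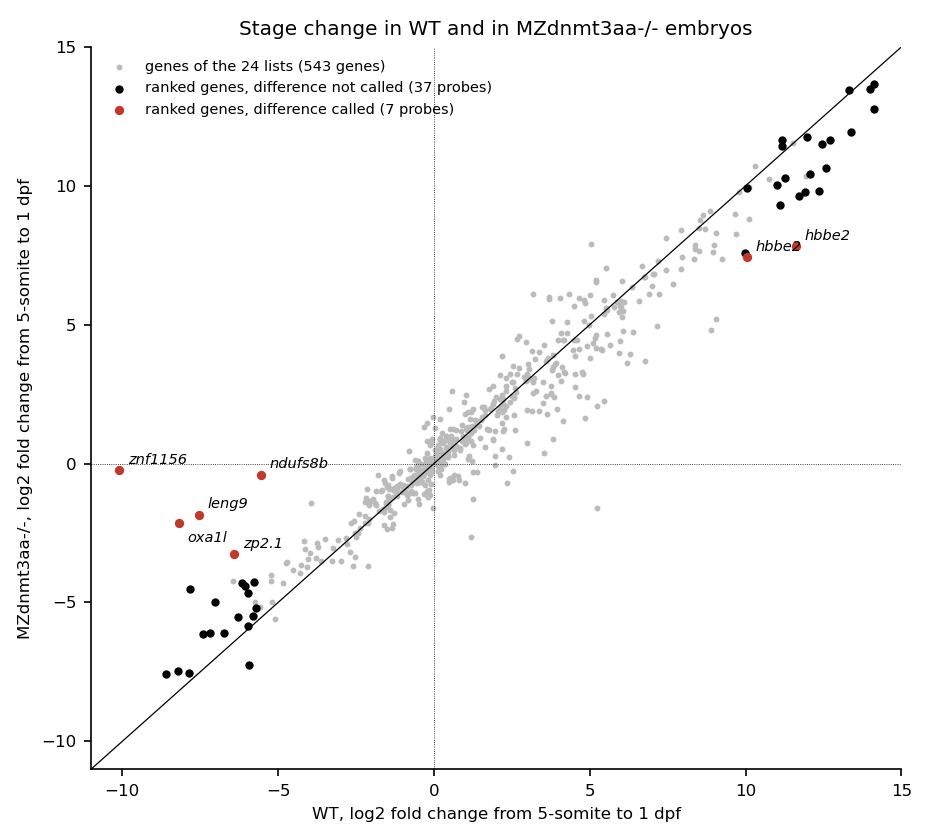
Log2 fold change from 5-somite to 1 dpf in WT (x axis) and in MZdnmt3aa-/- (y axis), for the 543 genes of the 24 lists (grey) and for the 44 probes of the ranked genes (black, and red where the difference between the genotypes was called), with the line of equal change. Most points lie near the line, and the named exceptions include znf1156 at -10.09 and -0.22 and a probe of hbbe2 at 11.63 and 7.83, measured values that in WT include a stage not well above background.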

How the data were processed

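RNA of whole embryo pools was hybridised as Cy3-labelled cRNA to a one-colour zebrafish array (V3 design). The authors extracted spots with Agilent Feature Extraction 12.0.3.1, and the deposited intensity values are its processed signals times 1 factor per array, chosen so that the mean without the lowest and highest 2% is 2500. The deposited flags of the scanner software gave the calls of well above background. Array number limits the precision, and p-values measure only the spread between pools.

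Values were log2 transformed, outlier spots left out and spots of a probe averaged. Symbols came from RefSeq accessions for 26421 of 43603 probes and from name columns supplied with the study for 711, and 16471 had none. Within the 6 WT arrays limma 3.58.1 (R 4.3.3) was fitted without a filter on dim probes, with Benjamini-Hochberg adjustment over all probes and calls at an adjusted p of at most 0.01. Interactions were fitted on 12 arrays. For lists the probe of a gene with the highest mean signal stands for it, and 543 of 587 list entries had a probe. Named are the 12 largest rises and falls among genes detected on at least 1 array of the lower stage, the 10 switched-on and switched-off genes with the highest lower limits, and the first 5 members and the largest rise and fall of each list, besides members chosen after the values were seen. The ranked genes had to be called, with stages that did not overlap. Members and lists were chosen with earlier results of these data known. On simulated data for this comparison, over 43595 probes, 58 of 100 changes of 1 and 74 of 100 changes of 2 on the log2 scale were recovered, with 1 false call. No other probe was changed there, whereas 63.0% of the probes were called in the data. The adjustment is stricter where few probes change, so these shares do not give the recovery in the real comparison. Replicate numbers did not pair samples. Promoter motifs were not analysed here, and a few list members are not reported here by name.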

Additional observations from a re-analysis of the deposited data

Results flagged for a closer look

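The stage change of 3466 probes differed between WT and MZdnmt3aa-/- and that of 9858 between WT and dnmt3bb.2-/- by the interaction test of limma (adjusted p of at most 0.01). In MZdnmt3aa-/- the difference is between genotypes scanned on different days. In dnmt3bb.2-/- it is between genotypes on different slides, except for 1 dpf replicate 1 of the mutant. Values below are the WT log2 fold change minus that of the mutant, as measured. For switched genes the WT change starts from or ends at a signal not well above background, so its size there is no exact value.

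Against MZdnmt3aa-/-, the globin hbbe2 rose more in WT, by 2.62, and its switched-on probe gave 3.80. The egg coat gene zp2.1 fell more in WT (-3.15), and 4 switched-off genes gave -9.87 (znf1156), -5.71 (leng9), -6.04 (oxa1l) and -5.14 (ndufs8b). Each value is that of 1 probe. In WT the other probes changed far less for 3 of these genes, with -1.03 and -0.65 for znf1156, 0.28 for leng9 and -0.57 to 0.75 for oxa1l.

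Against dnmt3bb.2-/-, the same probes of the 4 genes gave -6.62 for znf1156, -6.50 for leng9, -5.41 for oxa1l and -4.57 for ndufs8b. Larger falls in WT were also found for cyp11a1.1 (-4.75), zp2.1 (-2.73), zp3.1 (-2.51) and ptgdsb.2 (-1.12), and the switched-off probes of ptgdsb.2 and ankrd31 gave -2.08 and -1.71. The falls of cdx1a (2.02), wnt8-2 (1.32) and pnhd (2.91) were smaller in WT. In the mutant these probes gave -10.25, -7.28 and -8.86, to levels that may lie below detection, so the sizes are not exact. The value of cdx1a is that of 1 probe, and its brightest probe gave -0.26 in WT. The rises of myhz1.1 (-1.91), atp2a1 (-0.91) and hbbe3 (-0.95) were smaller in WT, the value of myhz1.1 being that of 1 probe, with -0.56 to -0.03 on its other probes. A switched-on probe of tnni2a.4 gave 1.06, and its other probes gave -1.31 and -0.0037.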

How the results depend on the processing

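The number of called probes was 27460 and stayed between 22615 and 31889 under every alternative but Holm adjustment and the slide block, and between 24330 and 26527 without 1 WT array. With Holm adjustment 3285 probes were called, 2425 higher and 860 lower, all 3285 by at least 2-fold, with 617 switched on and 32 switched off. In a model of all 45 arrays with slide as a random block, chosen after seeing the data, 16665 were called, 8970 higher and 7695 lower. With probes above background on all 6 arrays only, 8787 changed at least 2-fold, and 0 were switched on and 0 off by construction. With values below 32 raised to that floor 255 were switched off. With normexp, which here adds an offset of 50 and ends with quantile normalization, 6377 changed at least 2-fold. The share of higher probes among those called was 50.8% and fell to 43.3% with 75th percentile scaling, 38.0% with quantile normalization and 39.2% with normexp. The median log2 fold change of all probes was -0.05, and -0.20 and -0.23 under the first 2 of these. With the replicate number as a block 23365 probes were called, and the numbers did not pair the samples.

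Leaving out 1 array gave 1582 to 6430 probes for the difference between WT and MZdnmt3aa-/-, with 1938 and 5259 without MZdnmt3aa-/- 1 dpf replicates 2 and 3 and 6430 without its 5-somite replicate 3. It was 1582, 1630 and 1689 without WT 1 dpf replicates 1 to 3, and 1676 and 1681 without WT 5-somite replicates 1 and 2. The stage change in MZdnmt3aa-/- gave 6485 to 11414 probes in place of 12023. The cause was not tested. Over 186 results of named genes 3598 values kept their side of the threshold, 219 lost and 38 gained the call. None of the called values changed sign. Of 5 genes that were not called (neurog1, sox2, cryaba, spaw and mcm4), 8 values took the other sign or went to 0 under another scaling, background correction or floor, and mcm4 was called higher with normexp.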
